A study of Mus musculus with 6 samples.

Results

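Costimulatory and coinhibitory ligands are surface proteins through which an antigen-presenting cell tunes the response of a T cell that has met its antigen. The 10 genes described here were Cd80, Cd86, Cd40, Cd274, Pdcd1lg2, Icosl, Tnfsf4, Tnfsf9, Cd70 and Vsir, taken by gene name from a table of 54532 genes. All 10 were found once, and all 10 were among the 14883 genes counted deeply enough to be tested. The libraries came from primary mouse T cells, which the paper describes as CD8T cells of the spleen, stimulated through CD3 and CD28 on beads and then kept with macrophages primed by IFN-γ. The partner cells of the DB2313 group had received DB2313, a small molecule that inhibits the transcription factor Spi1 (PU.1), and those of the control group had not. Each group held 3 samples. Gene positions are given as deposited and, except for Pdcd1lg2, are those of GENCODE M21 on GRCm38. The labels name DC cells as the partner cells where the paper names macrophages. The sources do not state whether samples came from separate cultures or animals, so p-values measure the spread between these samples, which may be technical.

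T cell activation needs a signal from the antigen receptor and a costimulatory signal, and it is restrained by coinhibitory signals. Cd80 and Cd86 engage Cd28, which costimulates, and Ctla4, which inhibits. Cd274 (PD-L1) and Pdcd1lg2 (PD-L2) engage the inhibitory receptor Pdcd1, Icosl engages Icos, and Vsir (VISTA) is an inhibitory immunoglobulin-like protein. Tnfsf4 (OX40L), Tnfsf9 (4-1BBL) and Cd70 are TNF superfamily ligands of Tnfrsf4, Tnfrsf9 and Cd27. Cd40 is itself a receptor, through which a T cell carrying Cd40lg licenses the antigen-presenting cell. These ligands are best known on macrophages, dendritic cells and B cells, but activated T cells can also make several of them, among them Cd274, Cd80, Cd86 and Cd70.

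In the DB2313 group, 8 of the 10 ligands fell, and none rose. The fall was steepest in Pdcd1lg2, which was 3.98-fold lower, followed by Cd70, Cd40 and Cd86, which were 1.56-fold to 1.86-fold lower. Tnfsf4, Cd274, Icosl and Vsir fell by less, and Cd80 and Tnfsf9 did not pass the test. A gene was called at an adjusted p below 0.05 from the quasi-likelihood test of edgeR, adjusted after Benjamini and Hochberg over all tested genes. At that threshold 24.6% of all tested genes were lower and 20.8% were higher, so the 8 of 10 are to be read against 24.6%. All 10 log2 fold changes lay below 0, with the exception of Cd80 under library size scaling, so that no ligand was higher at an unadjusted p under 0.05 or with DESeq2 either. The median log2 fold change of the ligands was -0.46, against 0.019 over all tested genes. With an absolute log2 fold change above 1 as a second condition, 1 of the 10, Pdcd1lg2, was lower, beside 5.30% of all tested genes, and none was higher, beside 1.37%. The groups did not overlap in 8 of the 10 ligands, which held for 53.1% of all tested genes.

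**Figure D1:**
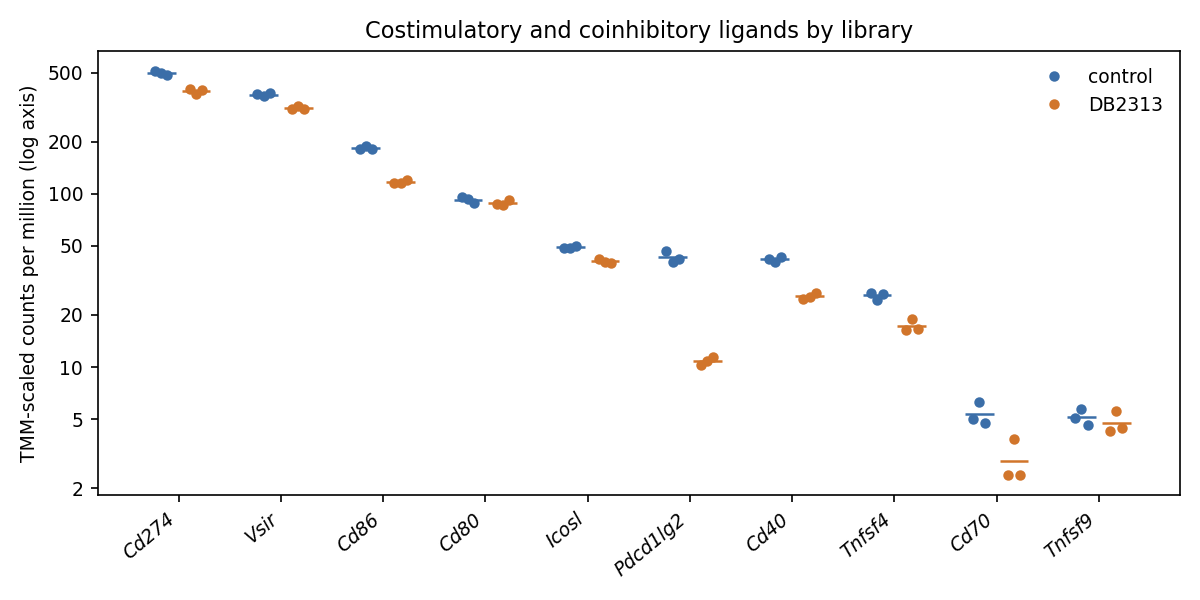
CPM (the per-million scale of read counts) of the 10 ligands after TMM scaling, on a log axis, with a point for each library and a line at the group mean of 3 libraries. The groups are separate in 8 genes and overlap in Cd80 and Tnfsf9, and the gap is widest in Pdcd1lg2.

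Markers of several cell types were counted in the libraries, and their shares of the counts moved with the groups. A share is of reads of the listed genes and not of cells, and cells of other types can also make a listed gene. Totals ranged from 16611975 to 18596217 counts. All 20 T cell markers were counted and all 20 were higher in the DB2313 group, with log2 fold changes from 0.32 to 0.74, and they took 0.378% to 0.383% of the control counts and 0.609% to 0.613% of the DB2313 counts. Of 20 tested macrophage markers 17 were lower and 3 higher, with a median log2 fold change of -0.99. The list fell from between 1.09% and 1.12% of the counts to between 0.413% and 0.422%, with Vsig4 at 0. Lyz2 held most of these counts, at 7702 CPM in the control group and 2084 CPM in the DB2313 group. C1qb was next at 639.2 and 364.5 CPM. Of 9 tested dendritic cell markers 6 were lower, 2 were higher and 1 was not called (0.0581% to 0.0588% of the control counts, 0.0368% to 0.0381% of the DB2313 counts, with Siglech at 0). Of 6 tested mature dendritic cell genes all 6 were lower (0.433% to 0.439% and 0.317% to 0.321%). Of 9 neutrophil genes 8 were lower and 1 was higher (0.174% to 0.176% and 0.0677% to 0.0696%). Of 9 B cell genes 6 were higher, 1 was lower and 2 were not called (0.00571% to 0.00605% and 0.00851% to 0.00868%). Of 6 tested stromal and endothelial genes 3 were higher and 3 were not called (0.0119% to 0.0122% and 0.0142% to 0.0147%). Most of that last share was Pecam1, at 114.8 CPM in the control group and 127.0 CPM in the DB2313 group. Kdr was next at 4.46 and 6.66 CPM. The most counted genes of these lists were Lck (log2 fold change 0.64) and Tcf7 (0.56) for T cells, Lyz2 (-1.89) and C1qb (-0.81) for macrophages, Irf8 (-1.08) and Clec10a (1.18) for dendritic cells, Ccl22 (-0.88) and Ccr7 (-0.10) for mature dendritic cells and S100a9 (-1.72) and Mmp8 (-0.28) for neutrophils. Those of B cells were Cd79a (0.63) and Cd79b (0.46), and those of stromal and endothelial cells Pecam1 (0.15) and Kdr (0.58), and Tcf7, Cd79b, Pecam1 and Kdr turned sign when libraries were scaled to the T cell markers. The part of these shares in the fall of the ligands was not tested. In RNA of mixed cells, fewer cells of a type and less RNA per cell cannot be told apart. By log2 fold change, all 10 ligands lay below the lowest T cell marker. Against the median of the macrophage markers 9 lay above, and Pdcd1lg2 at -1.99 lay below. The tested macrophage markers ranged from -2.16 to 1.44 and the dendritic cell markers from -3.54 to 1.18, and all 10 ligands lay within both ranges.

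Among the B7 proteins of costimulation, Cd86 took 3247, 3219 and 2951 counts under control conditions and 2121, 1969 and 2208 with DB2313. After TMM scaling (CPM, the usual per-million scale, here of an effective library size) these were 180.0, 187.3 and 180.3 against 114.8, 115.4 and 120.0 CPM, so all 3 control libraries lay above the 3 of the DB2313 group. Cd86 (ENSMUSG00000022901, minus strand of chromosome 16, from 36603869 to 36666081) averaged 182.5 ± 4.15 and 116.7 ± 2.84 CPM (SD, n = 3 each), a log2 fold change of -0.64 (standard error, SE, 0.038, edgeR adjusted p = 1.02e-12). Cd80 (ENSMUSG00000075122, from 38455561 to 38496335), which lies 1.79 Mb away on the plus strand and binds the same receptors, had 96.1, 93.0 and 88.1 CPM in the control libraries and 86.7, 86.0 and 91.6 CPM in the DB2313 libraries. The groups overlapped, and the log2 fold change of -0.069 had a 95% confidence interval from -0.16 to 0.027 (edgeR adjusted p = 0.239). Its sign depended on the scaling, with 0.026 under library size scaling.

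The ratio of Cd80 to Cd86 was taken within each library, where no scaling between libraries enters. Cd80 was counted at 0.534, 0.497 and 0.489 of the Cd86 count in the control libraries and at 0.755, 0.746 and 0.764 of it in the DB2313 libraries. The log2 ratio was 0.58 higher in the DB2313 group, without overlap between the groups (exact two-sided permutation p = 0.1, which 3 samples a group cannot go below, adjusted p = 0.125 over 5 ratios). The third B7 ligand of costimulation, Icosl (ENSMUSG00000000732, plus strand of chromosome 10, from 78069302 to 78083913), had 48.8, 48.8 and 49.8 CPM in the control libraries and 41.9, 40.4 and 39.9 CPM in the DB2313 libraries. All 3 control libraries were higher, and the log2 fold change of -0.27 (SE 0.060, edgeR adjusted p = 0.000685) was of the same size as that of Vsir.

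Cd274 and Pdcd1lg2 share the receptor Pdcd1 and lie in the same orientation on chromosome 19, with a gap of 22.8 kb between them. Their log2 fold changes were -0.35 and -1.99. Pdcd1lg2 (ENSMUSG00000016498, from 29410919 to 29471157) took 847, 697 and 686 counts under control conditions and 189, 184 and 211 with DB2313, or 46.9, 40.6 and 41.9 against 10.2, 10.8 and 11.5 CPM. The lowest control library thus lay far above the highest DB2313 library. The means were 43.1 ± 3.37 and 10.8 ± 0.619 CPM (SD, n = 3 each), with a log2 fold change of -1.99 (SE 0.086, edgeR adjusted p = 3.44e-15). Only 1.18% of all tested genes had a lower log2 fold change.

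Cd274 (ENSMUSG00000016496, from 29367455 to 29388095) was the most counted of the ligands. It had 9217, 8563 and 7927 counts in the control libraries and 7420, 6421 and 7314 in the DB2313 libraries, or 510.8, 498.2 and 484.2 against 401.7, 376.3 and 397.5 CPM. The groups did not overlap, but the step was small, with a log2 fold change of -0.35 (SE 0.035, edgeR adjusted p = 1.57e-08). Within a library, 10.9, 12.3 and 11.5 reads of Cd274 were counted for each read of Pdcd1lg2 in the control group, and 39.2, 34.8 and 34.6 in the DB2313 group. The log2 ratio was 1.64 higher in the DB2313 group, with no overlap between the groups (exact permutation test, p = 0.1, adjusted p = 0.125 over 5 ratios). The ratio of Cd274 to Cd86 had geometric means of 2.73 without and 3.36 with DB2313, 0.30 higher on the log2 scale (exact permutation test, p = 0.1, adjusted p = 0.125).

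**Figure D2:**
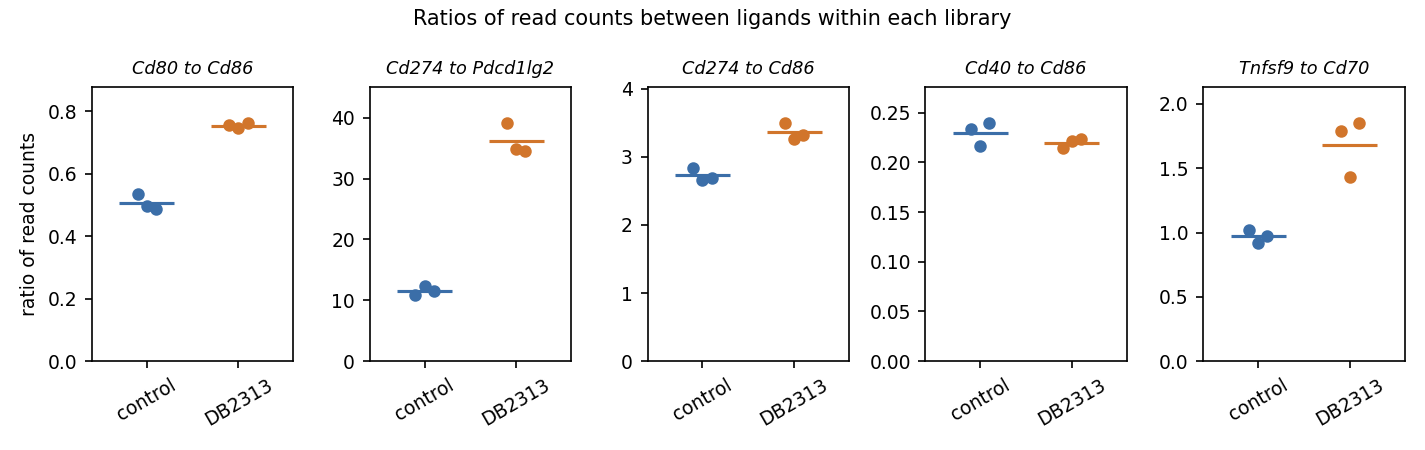
Ratio of the read counts of 2 ligands in each library, for 5 pairs, with a line at the geometric mean of each group of 3 and every axis starting at 0. The groups are separate in 4 pairs, most widely for Cd274 to Pdcd1lg2, and overlap for Cd40 to Cd86.

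The start regions of this neighbouring pair are shown because the genes share receptor, orientation and location but not the size of the fall. The windows hold 300 bases of GRCm38.p6 from RefSeq, 250 before and 50 after the start RefSeq annotates on the plus strand, and 5 of the 10 ligands had one. That start is the gene start given here for Pdcd1lg2 and Vsir, but lies 17 bases upstream of it for Cd274, 66 downstream for Icosl and 3372 downstream for Cd80, whose window is thus inside the gene as deposited. Capitals mark GGAA on either strand (GGAA or TTCC), the core that PU.1 and other ETS factors recognise. It was chosen after 4 longer motifs had no match.
Cd274, chr19:29367188-29367487: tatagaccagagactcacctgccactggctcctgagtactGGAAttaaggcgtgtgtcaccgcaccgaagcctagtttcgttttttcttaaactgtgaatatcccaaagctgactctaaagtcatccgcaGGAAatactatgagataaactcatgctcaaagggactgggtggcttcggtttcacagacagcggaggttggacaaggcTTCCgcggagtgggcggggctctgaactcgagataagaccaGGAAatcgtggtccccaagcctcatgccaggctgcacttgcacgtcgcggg
Pdcd1lg2, chr19:29410669-29410968: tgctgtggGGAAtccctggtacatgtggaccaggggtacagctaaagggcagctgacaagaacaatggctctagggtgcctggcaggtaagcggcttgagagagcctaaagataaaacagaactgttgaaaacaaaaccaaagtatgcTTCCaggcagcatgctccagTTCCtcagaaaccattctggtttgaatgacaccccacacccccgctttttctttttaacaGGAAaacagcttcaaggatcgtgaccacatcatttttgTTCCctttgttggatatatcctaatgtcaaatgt
The core occurred 4 times in the window of Cd274, 5 times in that of Pdcd1lg2, 2 times in that of Vsir, 1 time in that of Cd80 and 0 times in that of Icosl. It is short, and 96.0% of 32851 promoter windows of this length held it, with a median of 3. The longer motifs were GAGGAAGT for PU.1, GGG and TTTCC around any 2 bases for NF-kappa-B, TTCNNNGAA for STAT and GAAA and GAAA around any 2 bases for interferon response elements, searched on both strands. They were in 3.20%, 1.63%, 8.30% and 3.44% of all windows and in none of the 5, which says only that these letters are not in these windows.

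Most tested genes around this pair were lower. Without the pair, 8 genes within 250 kb of Cd274 were tested, of which 5 were lower, 1 was higher and 2 were not called. Over all tested genes 24.6% were lower and 20.8% higher. Jak2, a kinase of interferon-γ receptor signalling, lies upstream of Cd274 and fell by 0.74 on the log2 scale (SE 0.032). Insl6, between Jak2 and Cd274, fell by 0.73 (SE 0.079). Plgrkt, next to Cd274, was at -0.21 (SE 0.044). Ric1, on the far side of Pdcd1lg2, was at -0.60 (SE 0.052), and Ermp1 beyond it was at -0.022 (SE 0.065). Pdcd1lg2 lay below all of them. These neighbours were picked by position, after the values of the pair had been seen.

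**Figure D3:**
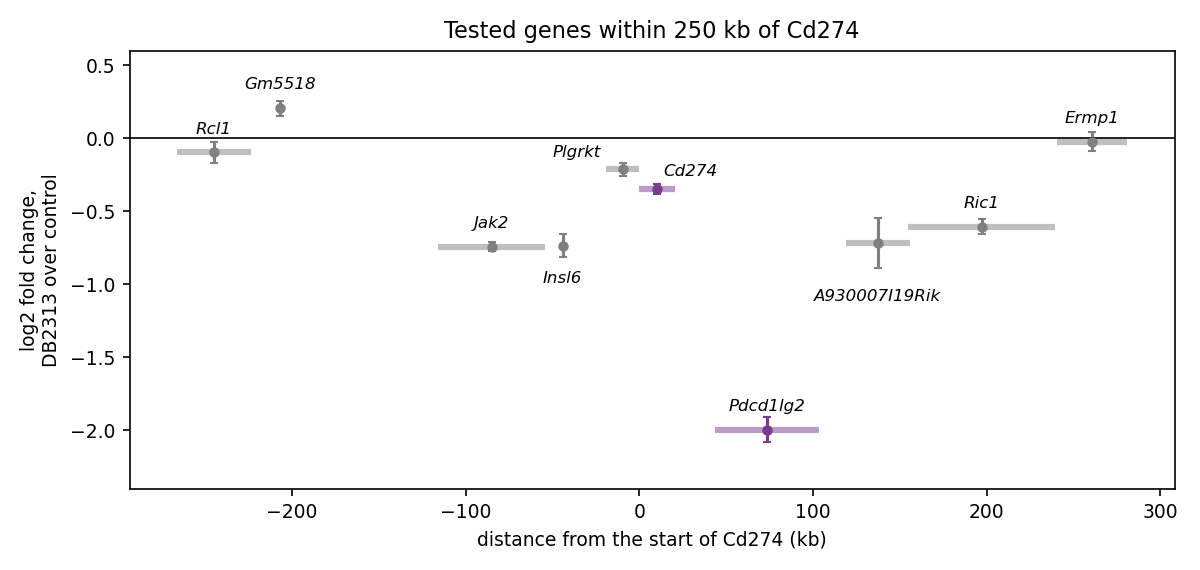
Log2 fold change, DB2313 over control, of the 10 tested genes within 250 kb of Cd274 against the distance from its start in kb. Horizontal bars span each gene, error bars are standard errors and purple marks the ligands: Pdcd1lg2 at -1.99 stands below all its neighbours, which range from -0.74 to 0.21.

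Vsir (ENSMUSG00000020101, plus strand of chromosome 10, from 60346851 to 60372684), the third coinhibitory gene, had 373.8, 367.0 and 379.8 CPM in the control libraries and 308.2, 319.8 and 307.3 CPM in the DB2313 libraries. The groups did not overlap. It fell by 0.26 on the log2 scale (SE 0.033, edgeR adjusted p = 6.89e-07), on at least 5457 counts in each library. The gene lies inside Cdh23, a gene of the opposite strand, without overlap of exons, and Cdh23 had at most 141 counts in a library.

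Cd40 (ENSMUSG00000017652, plus strand of chromosome 2, from 165055627 to 165072948) had 42.1, 40.6 and 43.2 CPM in the control libraries and 24.6, 25.5 and 26.8 CPM in the DB2313 libraries, with all control libraries above. It fell by 0.71 on the log2 scale (SE 0.069, edgeR adjusted p = 7.95e-09). The ratio of Cd40 to Cd86 overlapped between the groups, at 0.230 and 0.220 (geometric means, exact permutation test, p = 0.3 both before and after adjustment), and differed by -0.065 on the log2 scale.

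Of the TNF superfamily ligands, Tnfsf4 (ENSMUSG00000026700, plus strand of chromosome 1, from 161395409 to 161418410) took 484, 419 and 434 counts under control conditions and 302, 324 and 305 with DB2313. The groups were separate, at 25.9 ± 1.33 and 17.3 ± 1.46 CPM (SD, n = 3 each), with a log2 fold change of -0.58 (SE 0.087, edgeR adjusted p = 6.45e-06). Cd70 and Tnfsf9 lie 38.2 kb apart on chromosome 17 and were the least counted of the ligands. Cd70 (ENSMUSG00000019489, minus strand, from 57145997 to 57149777) had 90, 108 and 78 counts in the control libraries and 44, 66 and 44 in the DB2313 libraries. Replicate 2 stood above the other two in both groups. The log2 fold change of -0.90 (SE 0.21, edgeR adjusted p = 0.00128) ranged from -1.16 without DB2313 replicate 2 to -0.76 without control replicate 2, and it passed the test with each library left out.

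Tnfsf9 (ENSMUSG00000035678, plus strand, from 57105325 to 57107757) had 92, 99 and 76 counts in the control libraries and 79, 95 and 82 in the DB2313 libraries, and the groups overlapped. Its log2 fold change of -0.12 had a 95% confidence interval from -0.48 to 0.24 (edgeR adjusted p = 0.605), so a change of the size seen in Vsir was not detectable at this depth. Its exons overlap those of the lincRNA Gm11110 on the opposite strand over 192 bases, 14.9% of their length. Gm11110 had 113 to 143 counts, and reads of the overlap cannot be told apart without strand. Within a library, 1.02, 0.917 and 0.975 reads of Tnfsf9 were counted for each read of Cd70 in the control group and 1.79, 1.44 and 1.85 in the DB2313 group. That log2 ratio was 0.79 higher in the DB2313 group, without overlap (exact permutation test, p = 0.1, adjusted p = 0.125 over 5 ratios).

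Levels were compared between genes as CPM per kilobase of the gene length given in the table. In the control group Cd274 was highest at 137.4 ± 3.67, followed by Vsir at 74.5 ± 1.28 and Cd86 at 49.9 ± 1.13 (SD, n = 3 each). Pdcd1lg2 at 26.2 ± 2.05 and Cd80 at 25.0 ± 1.09 overlapped. Tnfsf4 at 14.1, Cd40 at 12.3, Icosl at 10.6, Cd70 at 6.35 and Tnfsf9 at 4.01 followed, each separate from the next in all libraries. In the DB2313 group Cd274 at 108.2 ± 3.76, Vsir at 62.2 ± 1.39 and Cd86 at 31.9 ± 0.776 kept the top of the order, but Pdcd1lg2 at 6.58 ± 0.376 stood in place 8 and Cd80 at 23.8 ± 0.824 in place 4. Tnfsf4 at 9.39 and Icosl at 8.82 overlapped, as did Tnfsf9 at 3.70 and Cd70 at 3.42. The table gives Pdcd1lg2 a length of 1645 bases where GENCODE release M21 has 1961, and with the latter its levels were 22.0 and 5.52 CPM per kilobase.

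**Figure D4:**
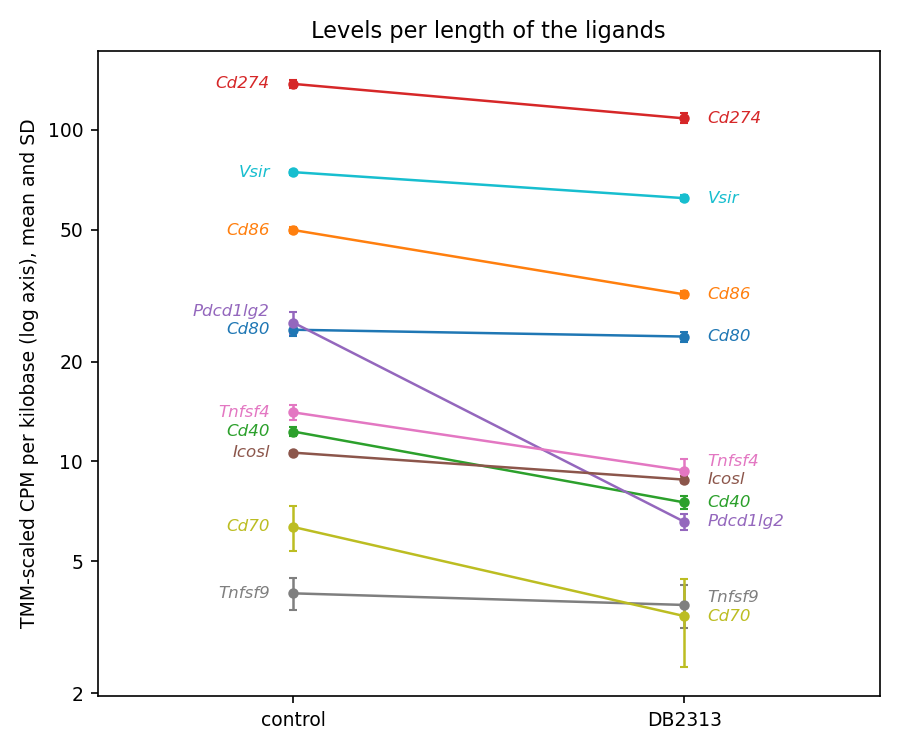
Mean CPM per kilobase of each ligand in the control and DB2313 groups, on a log axis, with the SD of 3 libraries as error bars. Cd274, Vsir and Cd86 are highest in both groups, and Pdcd1lg2 crosses below Tnfsf4, Icosl and Cd40.

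The receptors of these ligands mostly moved the other way. Of 9 tested partner receptors 7 were higher in the DB2313 group, 1 was lower and 1 was not called, with a median log2 fold change of 0.57. Over all tested genes 20.8% were higher and 24.6% lower, and of the 20 T cell markers all 20 were higher. DESeq2 also called 7 higher, and library size and upper quartile scaling 8 each. Scaling to the T cell markers, which by its construction lowered the median of all genes by 0.59 on the log2 scale, left 2 higher and 4 lower. Pdcd1, the receptor of Cd274 and Pdcd1lg2, went from 7.97 ± 0.712 to 15.6 ± 0.622 CPM (SD, n = 3 each), a log2 fold change of 0.97 (SE 0.11, edgeR adjusted p = 1.65e-07). Smaller rises were seen in Ctla4 at 0.69 and Cd28 at 0.63, the receptors of Cd80 and Cd86. Cd27 at 0.67, the receptor of Cd70, lay between them. Cd40lg at 0.57, Icos at 0.45 and Tnfrsf4 at 0.33 rose by less than the 0.59 of the median T cell marker, and their sign turned when libraries were scaled to the T cell markers. Under that scaling Cd28 at 0.047 and Ctla4 at 0.11 no longer passed, while Pdcd1 at 0.38 and Cd27 at 0.088 did.

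Tnfrsf9, the receptor of Tnfsf9 and a marker of recently activated T cells, was the exception. It went from 243.3 ± 9.39 to 176.2 ± 11.5 CPM (SD, n = 3 each), a log2 fold change of -0.47 (SE 0.043, edgeR adjusted p = 3.58e-09). Selplg, a candidate receptor of Vsir, was at 589.3 ± 11.2 and 598.9 ± 18.1 CPM and did not pass (log2 fold change 0.023, edgeR adjusted p = 0.593). Igsf11, another candidate, had 7 counts or fewer in each library and was not tested.

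**Figure D5:**
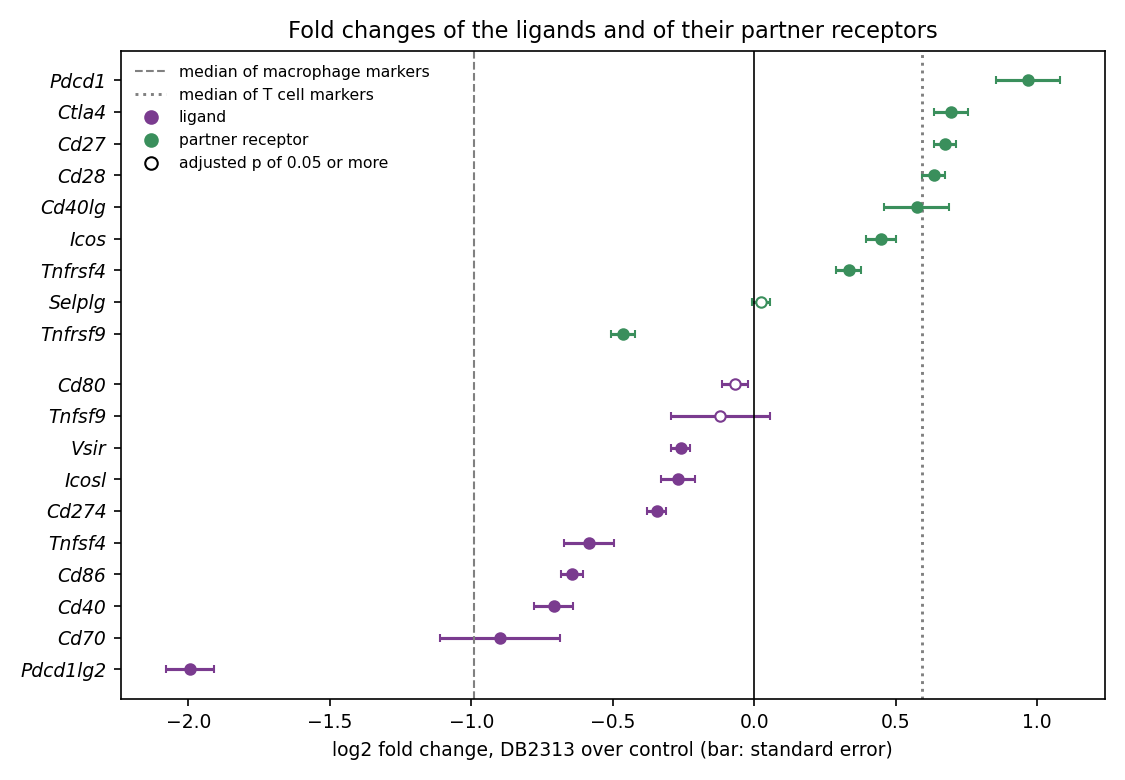
Log2 fold change, DB2313 over control, of the 10 ligands and 9 tested partner receptors, with standard errors. Filled points passed an adjusted p of 0.05; the dashed and dotted lines mark the medians of the macrophage markers (-0.99) and the T cell markers (0.59). With TMM scaling the ligands lie left of 0 and the receptors right of it, except Tnfrsf9 at -0.47, while Cd80 turned sign with library size scaling and Icos, Cd40lg, Tnfrsf4 and Selplg did when scaled to the T cell markers.

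Other genes of these families and pathways were followed as lists. The counts of each list below are to be read against 24.6% lower and 20.8% higher over all tested genes. Of 13 tested other TNF superfamily ligands 6 were lower and 5 higher, with a median log2 fold change of -0.18. The largest falls were in Tnfsf15 at -2.46, the cytokine Tnfsf12 (TWEAK) at -1.05 and the B cell survival factor Tnfsf13b (BAFF) at -0.97. The largest rises were in the death ligand Fasl at 0.76, Cd40lg at 0.57 and the lymphotoxin chain Ltb at 0.56, the last 2 of which turned to -0.012 and -0.030 when libraries were scaled to the T cell markers. Of the other B7 and butyrophilin genes 3 of 7 in the table were tested, with Btnl2 higher at 1.65 on few reads (8, 4 and 7 counts in the control libraries against 30, 18 and 15), Rgmb, which binds Pdcd1lg2, lower at -0.30, and Cd276 (B7-H3), named after its values were seen, not called at -0.87. The list's median was -0.30. Requiring at least 10 counts in every sample left Btnl2 untested.

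Of 14 tested other ligands of activating and inhibitory T cell receptors 7 were lower and 3 higher, with a median log2 fold change of -0.15. Fgl2, a secreted immunoregulatory protein, fell from 509.5 ± 10.4 to 162.0 ± 5.67 CPM (SD, n = 3 each, log2 fold change -1.65). Ceacam1 at -0.97 and Nectin2 at -0.83, ligands of inhibitory receptors, were the next. Icam2 at 0.57, Ly9 at 0.35 and Lgals9 at 0.28 were higher, and turned sign with scaling to the T cell markers.

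Of 17 genes of CD40 and TNF receptor signalling to NF-kappa-B, 10 were lower, none was higher in edgeR or DESeq2, and the median log2 fold change was -0.18. The lowest were Relb at -0.60, Rel at -0.46 and Birc3 at -0.39. All 17 were below 0 with TMM, so none was higher at an unadjusted p under 0.05 either, and library size scaling raised the median of all genes by 0.094.

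Of 17 tested genes of interferon-γ signalling and PD-L1 control 9 were lower and 4 higher, with a median of -0.15. March1, a ubiquitin ligase that removes Cd86 and MHC class II from the surface, was 3.22-fold lower (log2 fold change -1.69, SE 0.075). Spi1, the target of DB2313, was at -0.88, beside -0.99 for the median of the macrophage markers. An inhibitor of a protein need not change its transcript, and the part of the cell type shares in the fall of Spi1 was not tested. Jak2 was at -0.74. Ifngr1 at 0.47, Jak1 at 0.27 and Socs1 at 0.17 were higher, and turned sign with scaling to the T cell markers.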

How the data were processed

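RNA-seq libraries of 3 control and 3 DB2313 samples of cocultured mouse T cells were analysed, grouped by the labels. The authors deposited raw counts per gene without normalization. The submitters' processing notes name CASAVA 1.8, HISAT2 2.0.5 and featureCounts 1.5.0-p3, whereas the paper names LifeScope; the genome build and strand setting are not given in the sources used here. Of 54409 genes shared with GENCODE M21, 98.3% had its GRCm38 coordinates, as had 9 of the 10 ligands.

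The test was glmQLFTest of edgeR 4.0.16 after filterByExpr and TMM, in R 4.3.3, with Benjamini-Hochberg adjustment at 0.05. Standard errors came from the fitted change and its F statistic. Ratios between ligands were taken on counts plus 0.5 and compared with two-sided exact permutation tests (scipy 1.17.1). Scripts were tested on simulated data. Replicates were not copies of each other, with a chi-square per gene of at least 2.54. Where nothing was counted, 3 counts (1.81e-05% in the smallest library) remain possible by counting error alone.

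The members and lists were chosen with earlier results of these data known. Named besides the ligands were their receptors, Spi1, and from each list up to 3 rises and 3 falls past the test with at least 1 CPM, and for each marker list the 2 most counted genes. DESeq2 1.42.0, library size, upper quartile and T cell marker scaling, no filter, at least 10 counts, a replicate block, a fold threshold and leaving out each sample were alternatives. The deposited gene length set CPM per kilobase.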

Additional observations from a re-analysis of the deposited data

How the results depend on the processing

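Of 130 refits of the 10 ligands that left the threshold as it was, 127 kept their direction and their side of it, and 8 ligands were lower in each, except that 10 were with scaling to the 20 T cell markers. The other 3 concerned Cd80, at 0.026 with library size scaling, and Cd80 and Tnfsf9, which passed once libraries were scaled to T cell markers (-0.66 and -0.71). That scaling moved the median of all tested genes by -0.59. Lower genes made up 54.2% of all calls, and 36.6% with library size, 41.8% with upper quartile and 98.5% with T cell marker scaling. Requiring an absolute log2 fold change above 1 left 1 lower ligand, and 0 lower and 0 higher receptors. With scaling to the T cell markers 4 receptors were lower and 2 higher, and the log2 fold change turned to -0.14 in Icos, -0.012 in Cd40lg, -0.25 in Tnfrsf4, -0.56 in Selplg, -0.030 in Ltb, -0.31 in Lgals9, -0.018 in Icam2, -0.24 in Ly9, -0.12 in Ifngr1, -0.32 in Jak1 and -0.41 in Socs1, and among the markers to -0.031 in Tcf7, -0.12 in Cd79b, -0.44 in Pecam1 and -0.0071 in Kdr, as the scaling itself lowers every value. Same-numbered samples did not deviate together (correlations of -0.011 to 0.0025), and with the replicate block 8 ligands were lower again. Tnfsf9 and Cd70, with 44 to 108 counts in a library, were the most limited by depth.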
